A study of Mus musculus with 12 samples.

Results

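Amino acid transporter genes were examined in whole kidney RNA from 12 mice. The members were the protein-coding genes of the count table whose symbols begin with Slc1a, Slc3a, Slc6a, Slc7a, Slc36a, Slc38a or Slc43a and a number, and 62 of the 35275 genes listed met this rule (66 genes matched the symbols, and 4 of them were of another gene type). One member, Slc7a6os, shares its symbol's beginning with Slc7a6 but is not a transporter, so 61 belong to the families described here. All mice were C57BL/6J and 6 months old, and the labels give 2 females and 2 males in each group. The 4 WT mice carried normal Pkd1. The 4 RC/RC mice were homozygous for the hypomorphic Pkd1 RC missense allele, a model of slowly progressive autosomal dominant polycystic kidney disease. The 4 RC/RC:Casp1KO mice carried the same Pkd1 alleles and also lacked Casp1, which encodes the inflammatory protease caspase-1, in every cell through a TALEN-made deletion. The question set by the design is how the kidney transcriptome differs between normal and cystic kidneys, and how it differs again when caspase-1 is lost. The RC/RC mice had no Casp1 mutation of their own, and both groups of cystic mice carried the RC allele in every cell.

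Transporters of these families move amino acids across cell membranes. In the kidney most filtered amino acids are taken up in the proximal tubule: SLC6, SLC1 and SLC7/SLC3 carriers bring them in across the apical brush border, and other SLC7 and SLC43 carriers let them out across the basolateral membrane. The SLC7 light chains carry the substrate but reach the membrane only when bound to a heavy chain, Slc3a1 (rBAT) apically or Slc3a2 (4F2hc) basolaterally. Members of SLC36 and SLC38 work at the plasma membrane or in lysosomes, where some take part in signalling amino acid supply to the kinase mTORC1.

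Counted reads per mouse ranged from 20556335 to 22656309 in WT, from 18019819 to 24284831 in RC/RC and from 18738755 to 24869454 in RC/RC:Casp1KO. Values per mouse are given as counts scaled to library size (CPM) scaled with TMM factors over all 12 libraries, always in the order of the column headings: B6_2, B6_3, B6_4 and B6_6 for WT, RC105, RC139, RC140 and RC143 for RC/RC, and Del3_60, Del3_105, Del3_42 and Del3_70 for RC/RC:Casp1KO. Levels of different genes are compared only as FPKM, the count scaled to gene length and to library size. The term "called" means an adjusted p under 0.05 in edgeR's quasi-likelihood test, adjusted over all genes tested. Casp1 stood at 1.51 ± 0.366 CPM in WT mice, 3.52 ± 0.703 CPM in RC/RC and 0.69 ± 0.271 CPM in RC/RC:Casp1KO (mean ± SD, n = 4). It was called lower in RC/RC:Casp1KO than in RC/RC (log2 fold change -2.35 ± 0.324 SE, adjusted p = 0.00514). Against WT it was not called lower in RC/RC:Casp1KO (-1.12 ± 0.345 SE, adjusted p = 0.128). Pkd1 transcript was not called between any groups, with 52.9 ± 13.4 CPM in WT against 55.3 ± 9.7 CPM in RC/RC.

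The labelled tissue was borne out by its markers. The 17 proximal tubule markers summed to 11800, 13400, 21400 and 20700 CPM in WT mice, 8500, 6120, 11900 and 16100 CPM in RC/RC, and 13800, 13000, 19700 and 16600 CPM in RC/RC:Casp1KO, with the phosphate carrier Slc34a1 as the most abundant. Of these 17 markers, 16 had a negative log2 fold change in RC/RC against WT and 3 were called lower (among them Cubn and Slc5a2), with a median of -0.71; this was 17.6% of the markers, beside 3.18% of all genes called lower. In RC/RC:Casp1KO against RC/RC 16 had a positive one and 3 were called higher (among them Lrp2 and Cubn), with a median of 0.38, or 17.6% beside 7.23% of all genes called higher. Markers of other cells were called as well. All 6 fibroblast markers, all 6 lymphocyte markers, 5 of 6 macrophage and dendritic cell markers and 5 of 6 injured tubule markers were called higher in RC/RC than in WT, where 9.76% of all genes were, and none was called lower. Of 6 markers of the loop of Henle and distal tubule, 3 were called lower in the same comparison (Slc12a3, Pvalb and Calb1; median log2 fold change of all 6 -1.01), as was 1 of 4 podocyte markers, against 3.18% of all genes. Between the cystic groups, 4 of 6 fibroblast markers (median -1.49 over the 6) and 2 of 6 macrophage and dendritic cell markers were called lower in RC/RC:Casp1KO (4.41% of all genes were), and 1 loop and distal tubule marker, Slc12a3, was called higher. Without RC139, 1 rather than 3 proximal tubule markers (Slc5a2, not Cubn) was called lower in RC/RC than in WT, 3 rather than 6 lymphocyte and 5 fibroblast markers were called higher in RC/RC than in WT, and between the cystic groups 2 fibroblast markers and none of the macrophage or distal tubule markers were called. The share of all genes called fell as well in these fits, from 12.9% to 8.22% and from 11.6% to 4.79%. The fibroblast markers summed to 305, 232, 262 and 261 CPM in WT against 877, 1530, 887 and 673 CPM in RC/RC, led by Col1a2. The injured tubule markers, led by Spp1, summed to 2150, 1600, 503 and 727 CPM in WT against 5760, 3600, 2270 and 2200 CPM in RC/RC. None of the fibroblast, lymphocyte, macrophage or injured tubule markers was at 0 in any mouse. In whole tissue, fewer cells of a type and less RNA per cell cannot be told apart, and the part of these marker differences in the transporter results was not tested.

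A pair of libraries stood apart for some of these markers. The 4 adipose markers Adipoq, Plin1, Cidec and Lep summed to 314 CPM in mouse RC139 and 38.5 CPM in RC143, led by Cidec, against 0.31 and 0.162 CPM in the other RC/RC mice, 0.234 to 9.14 CPM in WT against 0.192 to 16.6 CPM in RC/RC:Casp1KO. Calls that ended when RC139 was left out are therefore given with and without it; for genes outside the transporter families, this fit was chosen after seeing the data. RC139 and RC140 also had the highest mitochondrial share of counted reads, 12.11% and 11.6%, against 7.779% to 10.57% in the other 10 mice; its part in their values was not tested. Mouse Del3_70 lay above the other 3 RC/RC:Casp1KO mice for the macrophage and dendritic cell markers (388 against 181 to 242 CPM), the lymphocyte markers (68.6 against 19.9 to 30.1 CPM), the fibroblast markers (544 against 269 to 388 CPM) and the injured tubule gene Lcn2 (62.1 against 4.65 to 12.7 CPM). Without Del3_70, also chosen after seeing the data for the marker lists, 5 fibroblast, 4 macrophage and dendritic cell and 5 injured tubule markers were called lower in RC/RC:Casp1KO than in RC/RC, and 3 proximal tubule markers higher, beside 9.04% of all genes.

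Levels spanned a wide range (see the plot of FPKM by gene). Of the 62 members, 22 had a mean FPKM of at least 10 over the 12 mice and 14 were under 0.1. Over all 12 mice Slc3a1 had the highest mean, 200 FPKM. It was followed by Slc7a13 at 197, Slc6a18 at 195, Slc6a19 at 103, Slc7a12 at 101, Slc7a7 at 86.1, Slc3a2 at 84 and Slc6a6 at 78.6 FPKM. This order of pooled means was not that of each group: Slc7a13, which was at most at 2.48 FPKM in 6 mice and reached 514 FPKM in the others, had a higher mean than Slc3a1 in WT mice (235 ± 272 against 214 ± 36.3 FPKM), and Slc6a18 did in RC/RC:Casp1KO (260 ± 102 against 232 ± 53.8 FPKM). Several neighbours did not differ beyond their spread: in WT mice, Slc7a7 stood at 108 ± 33.2 and Slc3a2 at 111 ± 41.9 FPKM, and Slc6a6 at 82.2 ± 11.4 and Slc7a9 at 84.4 ± 13.6 FPKM. Slc6a18 at 169 ± 26.9 FPKM lay above Slc6a19 at 116 ± 23.8 FPKM in WT mice. At the low end, 7 members had at most 3 counts in every mouse, among them the proton coupled carrier Slc36a3, which at these depths means that levels up to 0.121 to 0.166 CPM (3 counts per library, counting error only) could not be told from 0. Enough counts for a test were found for 48 members in at least 1 comparison, for 45 in all 3 and for none in the other 14. All 62 members summed to 5600, 6160, 5780 and 6300 CPM in WT mice, 5360, 3330, 3730 and 5050 CPM in RC/RC, and 6600, 6490, 6130 and 5260 CPM in RC/RC:Casp1KO. All 4 RC/RC mice thus lay below all 4 WT mice, while the RC/RC:Casp1KO mice overlapped both other groups.

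**Figure D1:**
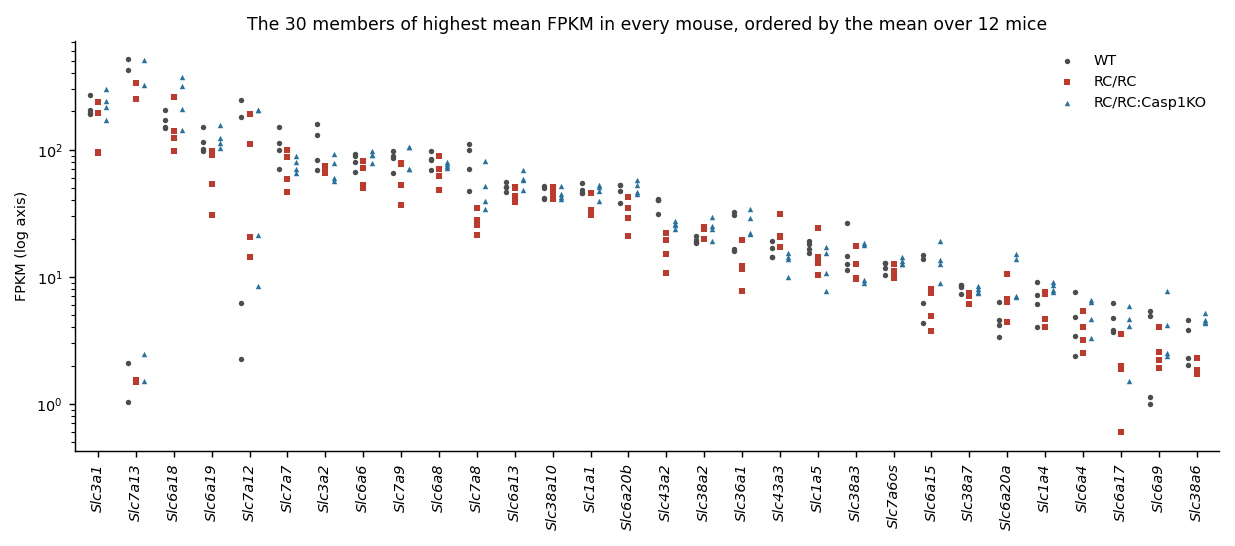
FPKM on a log axis for the 30 members with the highest mean, ordered by the mean over 12 mice. Each point is 1 mouse, with WT as circles, RC/RC as squares and RC/RC:Casp1KO as triangles; Slc7a13 and Slc7a12 split into high and low mice within every genotype, while most other genes stay within a narrow band.

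Cystic RC/RC kidneys held less of a pair of basolateral exporters of neutral amino acids, Slc7a8 (LAT2) and Slc43a2 (LAT4), and more of the cationic amino acid carrier Slc7a2 (CAT2), than WT kidneys. Slc7a8 was 3-fold and Slc43a2 2.28-fold lower, and Slc7a2 was 2.57-fold higher. Slc43a1 (LAT3) and Slc36a2 (PAT2) were also called higher, but Slc43a1 was called in only 1 and Slc36a2 in 4 of the 8 fits that left out 1 mouse. Slc36a2 had at most 3 counts in B6_2, B6_3 and B6_6 and passed the filter mainly through the RC/RC mice. In all, 3 of the 46 members tested were called higher and 2 lower, which is 10.9%, against 12.9% of all 15243 genes tested (9.76% higher and 3.18% lower), so the share called was near the background. More members were negative than positive, 32 against 14, with a median log2 fold change of -0.26 beside -0.02 over all genes tested.

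RC/RC:Casp1KO kidneys held more of 4 members than RC/RC kidneys. The SLC38 genes Slc38a6 and Slc38a9, the latter an arginine sensor of lysosomes, rose 2.39-fold and 1.81-fold, the lysosomal proton coupled carrier Slc36a1 rose 2.1-fold and the branched-chain amino acid carrier Slc6a15 2.24-fold, while Slc43a3, a carrier of purine bases, was 1.68-fold lower. These 4 higher and 1 lower members were 11.1% of the 45 tested, against 11.6% of all 15428 genes tested (7.23% higher and 4.41% lower). Of the 45, 34 had a positive and 11 a negative log2 fold change, with a median of 0.26 beside -0.03 over all genes. This comparison and the first share the 4 RC/RC mice, so opposite signs in them are not independent.

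Few differences were called between RC/RC:Casp1KO and WT. Slc43a2, 1.48-fold lower, was the single member called among 47 tested (2.13%), and 2.03% of all 15346 genes tested were called (1.13% higher and 0.893% lower). Before adjustment, 9 members had p under 0.05, and the background was 21.8% of all genes. Without RC139, 4 members were called in RC/RC against WT (3 of the 5 above, and Slc6a7) and 3 in RC/RC:Casp1KO against RC/RC (Slc38a6, Slc38a9 and Slc7a3), beside 8.22% and 4.79% of all genes. Slc6a7 and Slc7a3 were not tested in these comparisons with all mice. Both had at most 4 counts in every RC/RC mouse and passed the filter through the other group. Without Del3_70, 4 members were called in RC/RC:Casp1KO against RC/RC (3 of the 5 above, and Slc7a8) and none in RC/RC:Casp1KO against WT, beside 9.04% and 0.79% of all genes. By DESeq2 the calls were 14, 13 and 3 members in the 3 comparisons, among 2988, 3175 and 1406 genes. Beyond the edgeR calls, these held Slc1a3, Slc36a1, Slc38a6, Slc3a2, Slc6a12, Slc6a17, Slc6a20b, Slc6a7 and Slc7a1 in RC/RC against WT. In RC/RC:Casp1KO against RC/RC they held Slc43a1, Slc43a2, Slc6a19, Slc6a20b, Slc6a6, Slc6a7, Slc7a3 and Slc7a8, and in RC/RC:Casp1KO against WT Slc6a20a and Slc7a2. With the level of Xist in each mouse as a covariate in edgeR, 10, 9 and 6 members were called, and 18.1% (12.2% higher and 5.85% lower), 17% (9.77% and 7.23%) and 8.41% (4.65% and 3.75%) of all genes tested were called in the same fits.

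**Figure D2:**
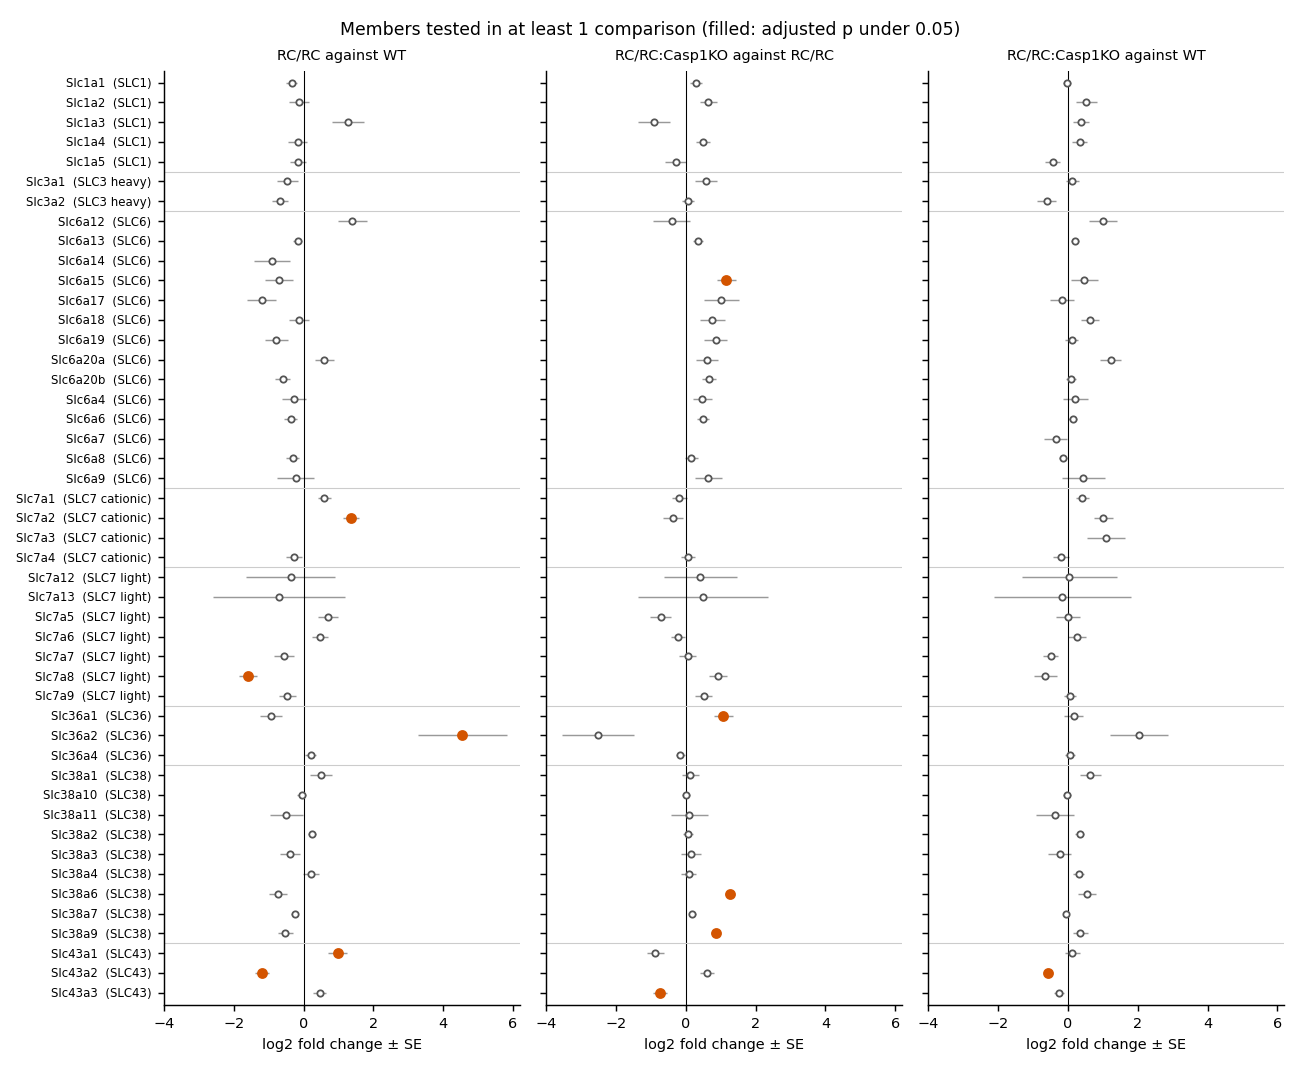
Log2 fold change ± SE (edgeR, 8 mice per comparison) of the members tested in at least 1 comparison, grouped by family, with filled points for adjusted p under 0.05. The filled points number 5, 5 and 1 from left to right, and the widest bars belong to Slc7a13, Slc7a12 and Slc36a2.

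**Figure D3:**
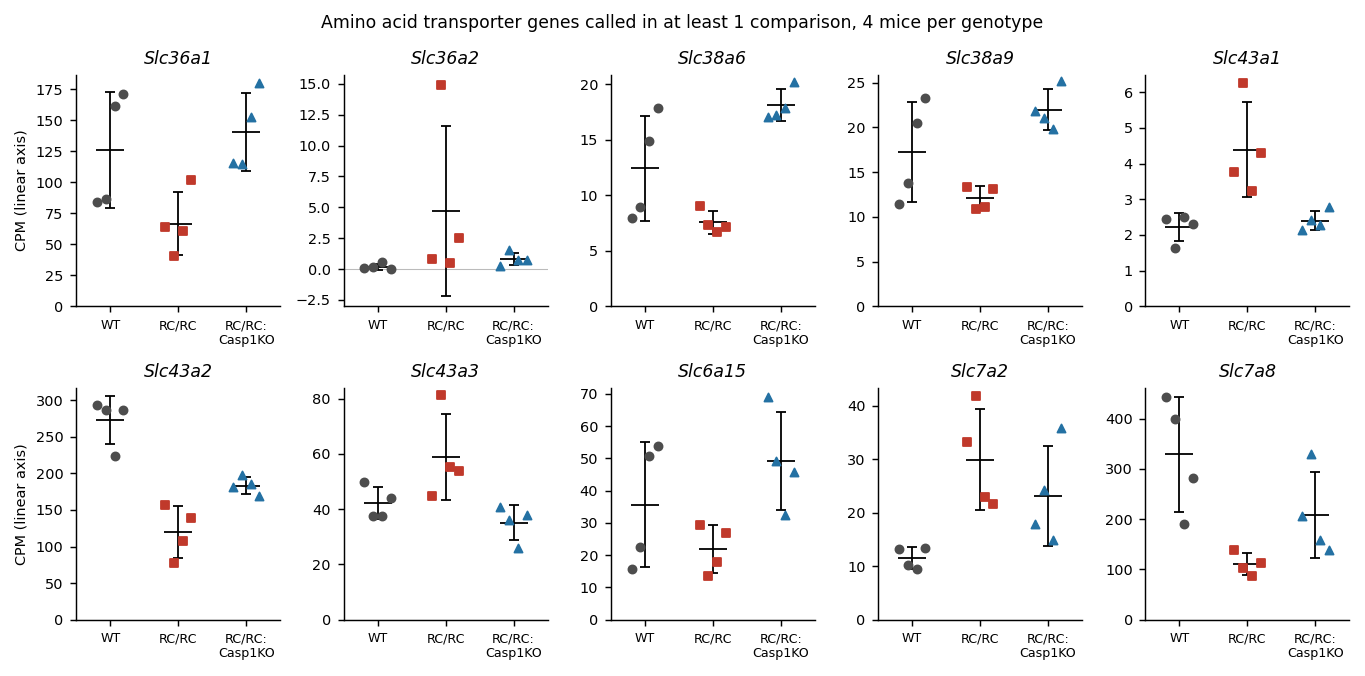
CPM in each mouse on linear axes for the 10 members called in at least 1 comparison, with the mean (horizontal tick) and SD (bar) of 4 mice. For Slc7a8 and Slc43a2 the 4 RC/RC squares lie below every WT circle; for Slc36a2, mouse RC139 at 14.9 CPM sets the RC/RC mean, and the SD bar there runs below 0.

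Promoters are shown for the members whose calls held whichever single mouse was left out, since these carry the differences described here: Slc7a8 and Slc43a2, lower in RC/RC than in WT, and Slc38a6 and Slc38a9, higher in RC/RC:Casp1KO than in RC/RC. Slc7a2, the fifth such member, had no entry. Each sequence is the 250 bases before the RefSeq start on the gene's own strand (GRCm38.p6, the assembly called mm10), and capitals mark the 1 copy of the cAMP response element TGACGTCA, which lies 121 bases before the start of Slc38a6. The windows are chr14:54781887-54782136 on the minus strand for Slc7a8, and on the plus strand chr11:75531444-75531693 for the upstream of both starts of Slc43a2, chr12:73286598-73286847 for Slc38a6 and chr13:112660516-112660765 for Slc38a9.
Slc7a8: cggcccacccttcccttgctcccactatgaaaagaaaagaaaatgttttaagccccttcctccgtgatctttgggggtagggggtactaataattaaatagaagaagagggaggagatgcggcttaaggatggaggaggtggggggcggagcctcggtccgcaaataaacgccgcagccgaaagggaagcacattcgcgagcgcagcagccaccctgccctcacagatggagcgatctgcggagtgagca
Slc43a2: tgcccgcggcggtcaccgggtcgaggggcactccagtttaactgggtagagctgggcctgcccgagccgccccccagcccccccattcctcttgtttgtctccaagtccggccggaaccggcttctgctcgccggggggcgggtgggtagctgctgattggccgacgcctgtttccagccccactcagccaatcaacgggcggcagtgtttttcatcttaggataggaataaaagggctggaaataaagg
Slc38a6: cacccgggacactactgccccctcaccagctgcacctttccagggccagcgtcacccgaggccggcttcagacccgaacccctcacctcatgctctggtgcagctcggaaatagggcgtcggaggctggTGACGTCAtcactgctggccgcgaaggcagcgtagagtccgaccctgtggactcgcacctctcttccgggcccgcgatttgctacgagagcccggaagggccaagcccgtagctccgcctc
Slc38a9: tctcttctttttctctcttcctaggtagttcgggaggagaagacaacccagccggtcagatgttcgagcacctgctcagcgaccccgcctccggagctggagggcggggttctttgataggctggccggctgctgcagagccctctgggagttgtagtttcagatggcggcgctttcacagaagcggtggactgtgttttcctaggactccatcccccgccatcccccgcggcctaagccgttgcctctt
Letters of other motifs were searched on both strands in windows from 250 bases before to 50 after the start, and those given here did not occur in the 4 sequences shown. The amino acid response element core TGATGNAA was in the promoters of 3 of the 44 members with an entry (Slc1a4, Slc7a11 and Slc7a7) and of 4.5% of all 27025 genes in the table. The antioxidant response element core TGACNNNGC was found for 8 members (14% of all genes) and the E-box CACGTG for 8 (8.1%), with Slc36a1 and Slc43a1 holding both. TGACGTCA, a motif added after these sequences had been read, was in the promoters of 2% of all genes and of no other member.

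Among the heavy chains, Slc3a1 forms the apical cystine carrier with Slc7a9. Slc3a1 stood at 470, 617, 438 and 447 CPM in WT mice, 544, 218, 220 and 448 CPM in RC/RC, and 693, 553, 496 and 396 CPM in RC/RC:Casp1KO. RC139 and RC140, the mice with the highest mitochondrial share, were the lowest of all, while RC105 and RC143 lay within the WT range, so the groups overlapped (log2 fold change -0.47 ± 0.301 SE, adjusted p = 0.324). Of the exonic bases of Slc3a1, 26.8% overlap Prepl on the other strand, and without strand the reads of both genes cannot be told apart there. The second heavy chain, Slc3a2, serves the basolateral carriers and stood at 449, 367, 194 and 234 CPM in WT mice, 201, 186, 185 and 208 CPM in RC/RC, and 223, 262, 167 and 160 CPM in RC/RC:Casp1KO. B6_2 and B6_3 lay above all other mice, and the remaining WT mice overlapped both other groups. Its exons share 15.9% of their bases with the noncoding Snhg1 on the other strand. Its log2 fold change was -0.68 ± 0.24 SE in RC/RC against WT (adjusted p = 0.0968, called by DESeq2) and -0.61 ± 0.273 SE in RC/RC:Casp1KO against WT (adjusted p = 0.234). With the Xist covariate, explained below, Slc3a2 was called lower in the last of these (-0.63 on the log2 scale, adjusted p = 0.0228).

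Slc7a9, the b0,+AT light chain of Slc3a1, stood at 185, 204, 137 and 179 CPM in WT mice, 163, 76.9, 111 and 162 CPM in RC/RC, and 219, 220, 146 and 146 CPM in RC/RC:Casp1KO. It was lowest in RC139 and RC140, as Slc3a1 was, and the groups overlapped (adjusted p = 0.225 in RC/RC against WT and 0.205 in RC/RC:Casp1KO against RC/RC). A second partner of Slc3a1 varied far more. Slc7a13 (AGT1), the light chain that pairs with Slc3a1 in the late proximal tubule and carries aspartate, glutamate and cystine, stood at 4.45, 2.2, 1100 and 902 CPM in WT mice, 3.18, 3.31, 534 and 715 CPM in RC/RC, and 3.23, 5.31, 1090 and 696 CPM in RC/RC:Casp1KO. Each genotype thus held 2 mice with 5.31 CPM or less and 2 with at least 534 CPM. In FPKM, Slc7a9 and Slc7a13 together came to 0.339 to 0.449 per unit of Slc3a1 in the mice low for Slc7a13 and 2.12 to 3.17 in the others.

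Slc7a12 (Asc-2), a light chain relative whose heavy chain is not known, had the reverse pattern. It stood at 314, 427, 3.95 and 10.9 CPM in WT mice, 331, 193, 24.8 and 35.6 CPM in RC/RC, and 358, 361, 37.1 and 14.7 CPM in RC/RC:Casp1KO. The 6 mice with high Slc7a12 were the 6 with low Slc7a13. They also held all the Xist, the RNA that silences the second X chromosome of females, at 315 and 360 CPM in WT mice, 441 and 278 CPM in RC/RC, and 666 and 778 CPM in RC/RC:Casp1KO, against 0.054 to 0.818 CPM in the other 6. The Y-linked Ddx3y was at 55.5 to 78.5 CPM in the other 6 and at most 0.115 CPM in the high-Xist mice. By Xist and Ddx3y, each genotype held 2 mice with the pattern of females and 2 with that of males, as the labels give. Slc7a12 was high in the former and Slc7a13 in the latter. The table's columns do not name the sex of a mouse, and no test was made between these mice. Neither gene was called between genotypes: the SE of the log2 fold change was 1.89 for Slc7a13 and 1.27 for Slc7a12 in RC/RC against WT (adjusted p = 0.835 and 0.874). With the Xist level of each mouse as a covariate, the SE in RC/RC:Casp1KO against RC/RC fell from 1.86 to 0.249 for Slc7a13. The log2 fold change moved from 0.50 to 1.05, and Slc7a13 was then called higher (adjusted p = 0.0244). Xist itself was higher in RC/RC:Casp1KO than in RC/RC, both among the high-Xist mice and among the others. Among the high-Xist mice it was also higher in RC/RC:Casp1KO than in WT. The covariate was the Xist level and not sex, so in comparisons with RC/RC:Casp1KO it differed with genotype as well. All calls made with it there, for any member, carry this limit. Within both sets Slc7a13 overlapped between the cystic groups. Del3_70 was at 696 CPM against 715 CPM in RC143, and Del3_60 at 3.23 CPM against 3.31 CPM in RC139. Slc7a12 was not called with the covariate in any comparison (adjusted p = 0.393, 0.75 and 0.627).

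**Figure D4:**
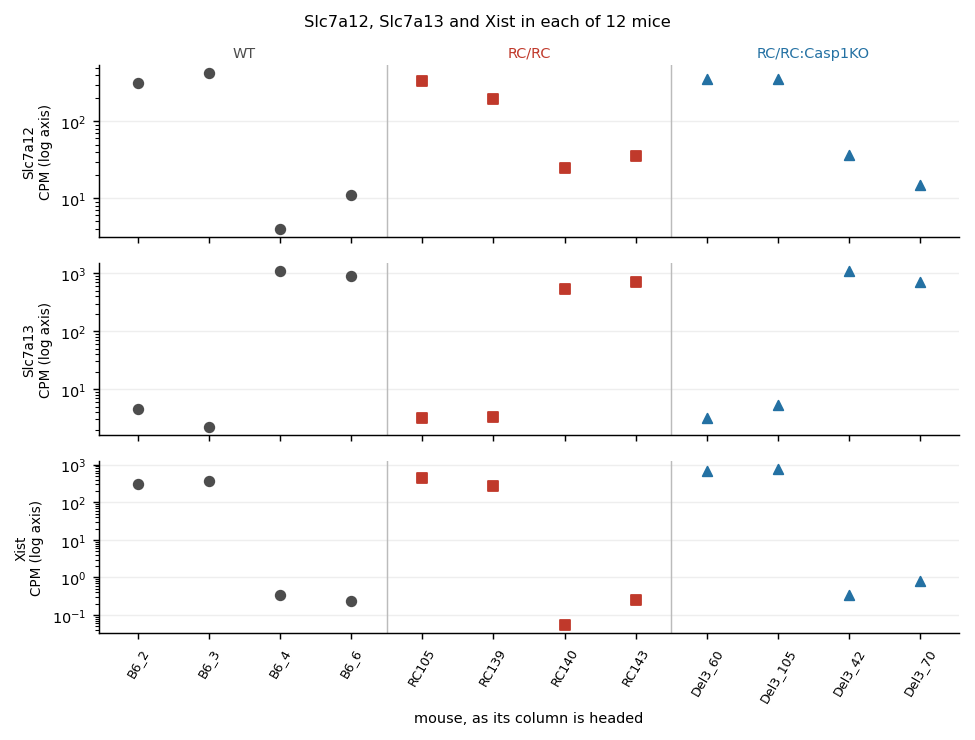
CPM on log axes of Slc7a12, Slc7a13 and Xist in each of the 12 mice, with the genotypes side by side. In every genotype the 2 mice with Xist of at least 278 CPM are high for Slc7a12 and low for Slc7a13, and the other 2 are the reverse.

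Of the light chains that pair with Slc3a2, Slc7a8 (LAT2; chr14:54722216-54781886, minus strand, mm10) exchanges neutral amino acids at the basolateral membrane of the proximal tubule. Slc7a8 stood at 443, 400, 190 and 283 CPM in WT mice, 139, 102, 86.8 and 112 CPM in RC/RC, and 207, 329, 158 and 139 CPM in RC/RC:Casp1KO. All 4 RC/RC mice were below the lowest WT mouse, and the RC/RC:Casp1KO mice spread from the highest RC/RC mouse into the WT range. The log2 fold change was -1.58 ± 0.26 SE in RC/RC against WT (adjusted p = 0.00486), and it was called whichever mouse was left out. In RC/RC:Casp1KO against RC/RC it was 0.92 ± 0.268 SE (adjusted p = 0.0537, called by DESeq2, and 0.0261 with the Xist covariate), and in RC/RC:Casp1KO against WT -0.65 ± 0.323 SE (adjusted p = 0.271, and 0.0334 with the covariate, where it was -0.72). Per unit of Slc3a2 in FPKM, Slc7a8 came to 0.682 to 0.844 in WT, 0.327 to 0.484 in RC/RC and 0.605 to 0.876 in RC/RC:Casp1KO, so the ratio in RC/RC did not overlap the other groups.

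Slc7a7 (y+LAT1), the basolateral carrier that exports lysine and arginine, stood at 323, 240, 152 and 214 CPM in WT mice, 189, 99.7, 126 and 215 CPM in RC/RC, and 190, 170, 142 and 152 CPM in RC/RC:Casp1KO. B6_2 was the highest and RC139 the lowest, and the groups overlapped (log2 fold change -0.56 ± 0.281 SE in RC/RC against WT, adjusted p = 0.214). Its exons share 10.4% of their bases with Oxa1l on the other strand. Slc7a5 (LAT1), the leucine carrier of growing cells, had a lower level per length, at 1.37 ± 0.461 FPKM in WT mice against 108 ± 33.2 FPKM for Slc7a7. Slc7a5 stood at 6.32, 6.03, 3 and 3.89 CPM in WT mice, 9.61, 9.62, 6.58 and 5.63 CPM in RC/RC, and 4.62, 5.93, 2.44 and 6.09 CPM in RC/RC:Casp1KO. RC105 and RC139 were above all other mice, but RC143 was below both B6_2 and B6_3 (log2 fold change 0.70 ± 0.282 SE, adjusted p = 0.134). With the Xist covariate Slc7a5 was called higher in RC/RC than in WT (log2 fold change 0.73, adjusted p = 0.013). Slc7a11 (xCT), the cystine and glutamate exchanger, had at most 10 counts in any mouse and was not tested.

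In the cationic branch of SLC7, Slc7a2 (CAT2; chr8:40862396-40922308, plus strand) takes up arginine, lysine and ornithine and is also known from macrophages and muscle. Slc7a2 stood at 13.2, 10.3, 9.39 and 13.4 CPM in WT mice, 33.2, 41.7, 22.9 and 21.6 CPM in RC/RC, and 17.8, 24.2, 14.8 and 35.8 CPM in RC/RC:Casp1KO. Every mouse of both cystic groups was above every WT mouse, and the cystic groups overlapped each other. For Slc7a2 the log2 fold change was 1.36 ± 0.228 SE in RC/RC against WT (adjusted p = 0.00528), called whichever mouse was left out, and 1.01 ± 0.271 SE in RC/RC:Casp1KO against WT (adjusted p = 0.0953). The latter difference was called by DESeq2 and with the Xist covariate (1.02, adjusted p = 0.0476). Del3_70 was the highest mouse of its group, and without it the change was 0.71 (adjusted p = 0.175). Macrophage and dendritic cell markers, led by Csf1r, summed to 166, 142, 149 and 132 CPM in WT mice, 461, 452, 409 and 332 CPM in RC/RC, and 242, 221, 181 and 388 CPM in RC/RC:Casp1KO. Their part in the Slc7a2 result was not tested. Slc7a1 (CAT1), the widely expressed arginine carrier, lay higher in all RC/RC mice (15.5 to 27.7 CPM) than in all WT mice (11.6 to 14 CPM) but was not called (adjusted p = 0.0618, and 0.0403 with the Xist covariate). Of the 46 members tested in this comparison, 7 had groups that did not overlap, against a background of 19.3% of all genes.

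At the brush border, Slc6a19 (B0AT1) takes up most neutral amino acids. Slc6a19 stood at 428, 410, 477 and 630 CPM in WT mice, 409, 128, 224 and 381 CPM in RC/RC, and 437, 652, 471 and 516 CPM in RC/RC:Casp1KO. All RC/RC mice were below all mice of the other groups, narrowly so for RC105, yet neither difference was called by edgeR. The log2 fold change was -0.78 ± 0.332 SE against WT (adjusted p = 0.155) and 0.86 ± 0.329 SE in RC/RC:Casp1KO against RC/RC (adjusted p = 0.111, called by DESeq2). Slc6a18 (B0AT3), a carrier of glycine and other neutral amino acids and the member with the most reads, stood at 633, 890, 657 and 735 CPM in WT mice, 1120, 608, 418 and 530 CPM in RC/RC, and 1600, 1370, 902 and 623 CPM in RC/RC:Casp1KO. The groups overlapped, with Del3_60 and Del3_105 above all other mice, and no difference was called (adjusted p = 0.781, 0.177 and 0.219). Both carriers need the accessory protein collectrin, listed as Tmem27, which stood at 1410 ± 137 CPM in WT mice, 1120 ± 413 CPM in RC/RC and 1100 ± 259 CPM in RC/RC:Casp1KO and was not called (adjusted p = 0.405 in RC/RC against WT).

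Slc6a20b, a proline carrier, stood at 198, 246, 270 and 274 CPM in WT mice, 178, 108, 149 and 221 CPM in RC/RC, and 270, 239, 299 and 233 CPM in RC/RC:Casp1KO. RC/RC lay below RC/RC:Casp1KO without overlap, and RC143 overlapped WT (log2 fold change 0.66 ± 0.21 SE in RC/RC:Casp1KO against RC/RC, adjusted p = 0.0669, and 0.0413 with the Xist covariate). Its reads are uncertain, since 21.3% of its exonic bases overlap Sacm1l on the other strand and stretches of 468 and 529 bases are 95.1% and 96% identical to Slc6a20a. Slc6a20a, a proline carrier too whose reads share this uncertainty, stood at 9.14, 17.3, 11.4 and 12.6 CPM in WT mice, 29, 18.4, 12.1 and 17.2 CPM in RC/RC, and 41.3, 37.7, 19.1 and 19.2 CPM in RC/RC:Casp1KO, where every mouse was above every WT mouse. It was not called in that comparison (log2 fold change 1.23 ± 0.298 SE, adjusted p = 0.0767), but was by DESeq2, without Del3_42, and with the Xist covariate (1.09, adjusted p = 0.0221); its values were given after they had been seen. Slc6a6 (TauT), the taurine carrier, stood at 412, 549, 497 and 570 CPM in WT mice, 504, 310, 325 and 439 CPM in RC/RC, and 559, 562, 607 and 484 CPM in RC/RC:Casp1KO. RC105 was within the WT range, so the groups overlapped (adjusted p = 0.224 against WT and 0.0966 in RC/RC:Casp1KO against RC/RC). The glutamate and aspartate carrier Slc1a1 (EAAC1) stood at 174, 208, 172 and 184 CPM in WT mice, 174, 116, 127 and 173 CPM in RC/RC, and 201, 179, 192 and 151 CPM in RC/RC:Casp1KO. RC139 and RC140 were again the lowest, and no difference was called (adjusted p = 0.197, 0.249 and 0.922).

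The member of this family that was called, Slc6a15 (B0AT2; chr10:103367808-103419378, plus strand), takes up branched-chain amino acids and proline and is best known from neurons. Slc6a15 stood at 15.8, 22.5, 50.6 and 53.7 CPM in WT mice, 29.2, 13.6, 17.9 and 27 CPM in RC/RC, and 69.1, 49.3, 32.3 and 45.8 CPM in RC/RC:Casp1KO. The RC/RC:Casp1KO mice were all above the RC/RC mice, and the WT mice were split by Xist. B6_2 and B6_3, with high Xist, were the low ones, whereas in RC/RC:Casp1KO the high-Xist Del3_60 and Del3_105 were the high ones. Slc6a15 had a log2 fold change in RC/RC:Casp1KO against RC/RC of 1.16 ± 0.278 SE (adjusted p = 0.032), and the call was lost without RC139, RC140, Del3_60 or Del3_105 (adjusted p = 0.0645, 0.0933, 0.0789 and 0.0796). Over the 12 SLC6 members tested in that comparison 11 had a positive log2 fold change, 1 was called higher (8.33%, beside 7.23% of all genes higher) and the median was 0.63. In RC/RC against WT none of 13 was called, beside 12.9% of all genes, 11 were negative and the median was -0.31. Below the threshold were, among others, the betaine carrier Slc6a12, at 1.85 ± 0.158 CPM in WT against 4.93 ± 2.72 CPM in RC/RC (adjusted p = 0.0566, and 0.0358 with the Xist covariate), and the vesicular carrier Slc6a17, at 29.1 ± 7.27 CPM in WT against 12.7 ± 7.66 CPM in RC/RC (adjusted p = 0.093, and 0.0224 with the covariate).

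In SLC36, Slc36a1 (PAT1; chr11:55204350-55236330, plus strand) exports small neutral amino acids from lysosomes together with protons. Slc36a1 stood at 84.4, 86.9, 162 and 171 CPM in WT mice, 64.4, 40.5, 60.4 and 102 CPM in RC/RC, and 116, 115, 153 and 180 CPM in RC/RC:Casp1KO. The RC/RC mice were all below the RC/RC:Casp1KO mice, and RC139 was the lowest of all 12. Slc36a1 had a log2 fold change in RC/RC:Casp1KO against RC/RC of 1.07 ± 0.272 SE (adjusted p = 0.0378), but the call was lost without any mouse other than RC143 (adjusted p from 0.055 without RC105 to 0.106 without RC140, and 0.0601 without RC139). In RC/RC against WT it was -0.93 ± 0.324 SE (adjusted p = 0.0925, and 0.0153 with the Xist covariate), the WT mice with the least Xist being the highest.

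Slc36a2 (PAT2; chr11:55158470-55185077, minus strand), a glycine and proline carrier also known from fat cells, was nearly silent in WT, at 0.0957, 0.144, 0.549 and 0 CPM. It stood at 0.853, 14.9, 0.486 and 2.53 CPM in RC/RC, and 0.269, 1.52, 0.72 and 0.772 CPM in RC/RC:Casp1KO. RC139 was above all other mice, RC143 was second, and RC140 lay below B6_4, so the groups overlapped. Slc36a2 was called higher in RC/RC than in WT (adjusted p = 0.0446 by edgeR). However, B6_2, B6_3 and B6_6 had at most 3 counts, and the gene passed the filter mainly through the RC/RC mice, so no fold change is given. The call was lost without RC139 (adjusted p = 0.12). It was also lost without B6_2, B6_3 or B6_6 (adjusted p = 0.0914, 0.0972 and 0.109). RC139 and RC143 were also the highest for the adipose markers, whose sum reached 16.6 CPM in Del3_105, the RC/RC:Casp1KO mouse with the most Slc36a2, 11.6 CPM in Del3_42 and 9.14 CPM in B6_4. Slc7a10 (Asc-1), a serine and alanine carrier also known from fat cells, stood at 4.21 CPM in RC139 and 0.387 CPM in RC143, at 0 in the other RC/RC mice, and at most at 0.35 CPM in WT against 0.285 CPM in RC/RC:Casp1KO. Of its exonic bases, 50.2% overlap Lrp3 on the other strand, so its reads are uncertain. The part of the adipose signal in the Slc36a2 result was not tested beyond leaving out RC139.

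**Figure D5:**
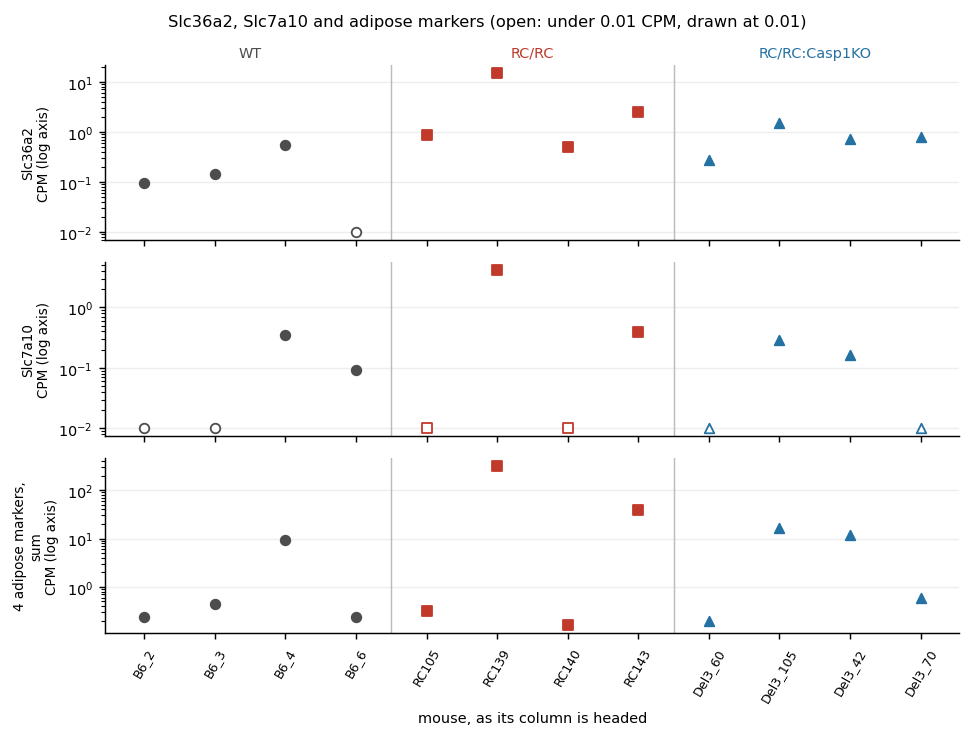
CPM on log axes of Slc36a2, Slc7a10 and the sum of 4 adipose markers in each of the 12 mice, with values under 0.01 CPM drawn open at 0.01. Mouse RC139 is the highest in all 3 panels, at 14.9, 4.21 and 314 CPM.

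In SLC38, a pair of genes was called in RC/RC:Casp1KO against RC/RC, and both held whichever mouse was left out. Slc38a6 (SNAT6; chr12:73286779-73354049, plus strand) is a little studied relative of the glutamine carriers. Slc38a6 stood at 7.99, 8.95, 14.9 and 17.9 CPM in WT mice, 9.03, 7.31, 6.74 and 7.17 CPM in RC/RC, and 17.1, 17.2, 17.9 and 20.2 CPM in RC/RC:Casp1KO. The RC/RC:Casp1KO mice were tightly grouped far above the RC/RC mice, whereas the WT mice spread from one group to the other. This spread followed Xist: B6_4 and B6_6, with little Xist, were high, and B6_2 and B6_3, with much Xist, were low. RC105 and RC139, the high-Xist RC/RC mice, overlapped B6_2 and B6_3, while RC140 and RC143 lay below B6_4 and B6_6. The part of sex in this was not tested. Between the cystic groups the log2 fold change was 1.26 ± 0.126 SE (adjusted p = 0.00199, and at most 0.0187 under the other settings), -0.73 ± 0.266 SE in RC/RC against WT (adjusted p = 0.106) and 0.54 ± 0.249 SE in RC/RC:Casp1KO against WT (adjusted p = 0.242). Its exons share 1.9% of their bases with Trmt5 on the other strand.

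Slc38a9 (chr13:112660766-112738743, plus strand) sits in the lysosomal membrane, where it senses arginine for mTORC1. It stood at 11.4, 13.8, 20.5 and 23.3 CPM in WT mice, 13.4, 10.9, 11.1 and 13.1 CPM in RC/RC, and 21.8, 21.1, 19.8 and 25.2 CPM in RC/RC:Casp1KO. As with Slc38a6, the cystic groups were apart and the WT mice were split by Xist, B6_2 and B6_3 being low. Again RC105 and RC139 overlapped B6_2 and B6_3, and RC140 and RC143 lay below B6_4 and B6_6. The log2 fold change was 0.85 ± 0.121 SE in RC/RC:Casp1KO against RC/RC (adjusted p = 0.0056, and at most 0.0265 under the other settings), and -0.52 ± 0.224 SE in RC/RC against WT (adjusted p = 0.16). All 9 SLC38 members tested had a positive log2 fold change in RC/RC:Casp1KO against RC/RC, from 0.01 to 1.26, with 2 called (22.2%, beside 7.23% of all genes called higher); of all 15428 genes tested, 7336 were positive. The better known members moved little. Slc38a2 (SNAT2), the carrier induced by amino acid shortage, stood at 85.4, 89.2, 96.3 and 87.2 CPM in WT mice, 110, 115, 110 and 91.8 CPM in RC/RC, and 137, 115, 87.9 and 110 CPM in RC/RC:Casp1KO, with overlapping groups (adjusted p = 0.162 in RC/RC against WT). Slc38a3 (SNAT3), which takes up glutamine for ammonia production in acidosis, stood at 39.5, 82.9, 35.6 and 45.9 CPM in WT mice, 54.9, 30.1, 30.9 and 39.3 CPM in RC/RC, and 55.6, 58.2, 28.1 and 29.7 CPM in RC/RC:Casp1KO. B6_3 was the highest of these and the groups overlapped (adjusted p = 0.376). Slc1a5 (ASCT2), another glutamine carrier, stood at 53.2, 50.9, 46.1 and 43.1 CPM in WT mice, 40.6, 67.9, 28.9 and 36.2 CPM in RC/RC, and 47.6, 43.1, 21.7 and 30.2 CPM in RC/RC:Casp1KO. RC139 was the highest and Del3_42 the lowest, and the groups overlapped (adjusted p = 0.683, 0.55 and 0.277 in the 3 comparisons). With the Xist covariate Slc1a5 was called lower in RC/RC:Casp1KO than in WT (-0.52 on the log2 scale, adjusted p = 0.0483).

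Of the 3 SLC43 members, 2 were called in RC/RC against WT, 1 in RC/RC:Casp1KO against RC/RC and 1 in RC/RC:Casp1KO against WT (beside 12.9% of all genes called in the first, and 4.41% and 0.893% called lower in the other two), and the calls of Slc43a1 and Slc43a3 were each kept in only 1 of 8 fits that left out a mouse. Slc43a2 (LAT4; chr11:75531694-75577575, plus strand) lets branched-chain amino acids, phenylalanine and methionine out of tubule cells. Slc43a2 stood at 294, 287, 224 and 286 CPM in WT mice, 157, 76.8, 108 and 139 CPM in RC/RC, and 181, 198, 185 and 169 CPM in RC/RC:Casp1KO. The 3 groups did not overlap at all: RC/RC was the lowest, RC/RC:Casp1KO lay between and WT was the highest. Of its exonic bases, 17.8% overlap the gene model Gm45606 on the other strand. For Slc43a2 the log2 fold change was -1.19 ± 0.211 SE in RC/RC against WT (adjusted p = 0.00686, called whichever mouse was left out). It was 0.61 ± 0.198 SE in RC/RC:Casp1KO against RC/RC (adjusted p = 0.073, but called by DESeq2 and in 1 fit over all 12 mice). In RC/RC:Casp1KO against WT it was -0.57 ± 0.11 SE (adjusted p = 0.0409). The last call was kept without Del3_42 or B6_4 and lost without any other mouse (adjusted p from 0.0879 without Del3_105 to 0.116 without Del3_70).

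Slc43a1 (LAT3; chr2:84838850-84863594, plus strand), a leucine and phenylalanine carrier known from podocytes, was scarce, at 2.44, 1.63, 2.5 and 2.3 CPM in WT mice, 3.76, 6.26, 3.24 and 4.3 CPM in RC/RC, and 2.15, 2.42, 2.27 and 2.77 CPM in RC/RC:Casp1KO. RC/RC lay above both other groups, with RC139 the highest. The log2 fold change was 0.98 ± 0.267 SE in RC/RC against WT (adjusted p = 0.0419), lost without any mouse other than RC140 (adjusted p from 0.0527 without RC105 to 0.115 without RC139, where the change was 0.73), and -0.87 ± 0.248 SE in RC/RC:Casp1KO against RC/RC (adjusted p = 0.0512). The second difference was called by DESeq2, where at least 10 counts were required in every mouse, in 1 fit over all 12 mice, and with the Xist covariate (-0.87, adjusted p = 0.0445). Slc43a3 (chr2:84936579-84958509, plus strand), a carrier of purine bases such as adenine, stood at 49.9, 37.7, 37.7 and 43.9 CPM in WT mice, 44.9, 81.2, 55.4 and 53.8 CPM in RC/RC, and 40.7, 36.1, 26 and 37.9 CPM in RC/RC:Casp1KO. RC/RC lay above RC/RC:Casp1KO without overlap, RC139 being the highest mouse. Slc43a3 had a log2 fold change of -0.74 ± 0.202 SE in RC/RC:Casp1KO against RC/RC (adjusted p = 0.0446), and the call was lost without any mouse other than RC105 (adjusted p from 0.0554 without RC143 to 0.102 without Del3_105). Without RC139 its change was -0.52 (adjusted p = 0.0975). Podocyte markers, led by Podxl, summed to 500, 542, 329 and 393 CPM in WT against 332, 416, 297 and 328 CPM in RC/RC, and their part in the Slc43a1 result was not tested. Endothelial markers, led by Kdr, summed to 337, 458, 379 and 329 CPM in RC/RC and 285, 333, 309 and 265 CPM in RC/RC:Casp1KO, with RC139 the highest here too, and their part in the Slc43a3 result was not tested. Of the members tested in RC/RC:Casp1KO against RC/RC, 9 had groups that did not overlap, against 20.5% of all genes, and in RC/RC:Casp1KO against WT 3 did so, against 13.7%.

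Genes that work beside the transporters were read from lists. Among 13 other carriers and surface peptidases tested in RC/RC against WT, 1 was called higher and 2 lower, or 23.1% beside 12.9% of all genes tested. The aromatic amino acid exporter Slc16a10 (TAT1), which works with Slc7a8 and Slc43a2 at the basolateral membrane, stood at 95.7 ± 23.4 CPM in WT mice, 45.3 ± 9.91 CPM in RC/RC and 65.6 ± 9.3 CPM in RC/RC:Casp1KO (log2 fold change -1.08 ± 0.202 SE in RC/RC against WT, adjusted p = 0.00869). The peptide carrier Slc15a1 (PEPT1) stood at 1.77, 1.82, 0.749 and 1.08 CPM in WT mice, and at 0.271, 0, 0.054 and 0.172 CPM in RC/RC. It was called lower in RC/RC (adjusted p = 0.00929), but RC139 and RC140 lay under the level of 3 counts and the gene passed the filter through the WT mice, so no fold change is given. Its lysosomal relative Slc15a3, known from macrophages, rose by 0.89 ± 0.234 SE on the log2 scale (adjusted p = 0.0357, and 0.08 without RC139). None of these carriers was called in the other comparisons (3 of 12 and 3 of 13 had an unadjusted p under 0.05 by edgeR, beside 31.7% and 21.8% of all genes). Without Del3_70, 1 of 13 was called lower in RC/RC:Casp1KO than in RC/RC (7.69%, beside 9.04% of all genes called).

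The 23 genes of the amino acid stress response driven by ATF4 held 1 call, higher, in RC/RC against WT (4.35%, beside 9.76% of all genes called higher). Asns, which makes asparagine, stood at 5.21, 5.12, 4.79 and 4.12 CPM in WT mice, 8.41, 11.8, 9.82 and 5.2 CPM in RC/RC, and 3.77, 4.36, 5.37 and 8.22 CPM in RC/RC:Casp1KO. RC139 was the highest and RC143 lay within the WT range (log2 fold change 0.86 ± 0.243 SE, adjusted p = 0.0471), and without RC139 Asns was not called (0.66 ± 0.228 SE, adjusted p = 0.128). Atf4 itself stood at 75.6 ± 8.82, 107 ± 22.9 and 80.4 ± 12 CPM in WT mice, RC/RC and RC/RC:Casp1KO (adjusted p = 0.0881 in RC/RC against WT). Of the 23, 20 were negative in RC/RC:Casp1KO against RC/RC, with a median of -0.38, and the translation repressor Eif4ebp1 (log2 fold change -1.05 ± 0.282 SE, adjusted p = 0.0443) and the glycyl-tRNA synthetase Gars (-0.37 ± 0.0935 SE, adjusted p = 0.0367) were called lower (8.7%, beside 4.41% of all genes). Neither call was kept without RC139 or without Del3_70 (adjusted p = 0.0732 and 0.0727 without Del3_70); without RC139 the changes were -0.65 for Eif4ebp1 (adjusted p = 0.0679) and -0.33 for Gars (adjusted p = 0.096).

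Of 21 genes by which mTORC1 reads amino acid supply, Tsc2, a subunit of the complex that restrains mTORC1, was called lower in RC/RC than in WT, at 62.7 ± 6.79 against 97.2 ± 3.09 CPM (log2 fold change -0.64 ± 0.101 SE, adjusted p = 0.00399). This was 4.76% of the list, beside 3.18% of all genes called lower. The comparison of RC/RC:Casp1KO with RC/RC called 3 higher and none lower, or 14.3% beside 7.23% of all genes called higher: Tsc1, the partner of Tsc2 (0.66 ± 0.158 SE on the log2 scale, adjusted p = 0.0316), Nprl3, a subunit of the GATOR1 complex (0.48 ± 0.0863 SE, adjusted p = 0.0141), and Tsc2 (0.39 ± 0.104 SE, adjusted p = 0.0415). Without RC139 Nprl3 was still called (adjusted p = 0.0277), and Tsc1 and Tsc2 were not (0.0643 and 0.0844), and the same held without Del3_70 (0.027 for Nprl3, 0.0558 for Tsc1 and 0.0699 for Tsc2). Slc38a9 belongs to the same lysosomal machinery and is described above. None was called in RC/RC:Casp1KO against WT, where 8 of 21 had an unadjusted p under 0.05 by edgeR, beside 21.8% of all genes.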

How the data were processed

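RNA from whole kidneys was sequenced, and the authors deposited one table of raw read counts per gene. The submitters' processing notes name CASAVA 1.8, STAR and the mm10 build; the counting tool, annotation and strand setting are not given in the sources used here. The authors' FPKM columns, group means and differential expression columns in the same table were not used. Columns name a mouse's genotype but not its sex or replicate number, and nothing in them ties mice to litters, so p-values measure the spread between these mice. The main fits held no term for sex, so this spread includes differences between females and males. Xist and Ddx3y levels separate the mice of each group, and only the alternative with the Xist level took this into account.

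Counts were tested with edgeR 4.0.16 (TMM factors, filterByExpr, quasi-likelihood test, Benjamini-Hochberg over all genes tested) in R 4.3.3, in a separate fit of 8 mice per comparison, and each gene was called at an adjusted p under 0.05. The steps were tested on simulated data. CPM used TMM factors of all 12 libraries, and FPKM used the deposited gene lengths. Alternatives were DESeq2 1.42.0, RLE factors, library size alone, a filter of at least 10 counts in every mouse, no filter beyond 1 count in all, 1 fit over all 12 mice, limma 3.58.1 on log2(FPKM + 1), the Xist level as a covariate, and leaving out each mouse (for the other gene lists, RC139 or Del3_70 alone).

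The members, gene lists and tests were chosen with earlier results of these data known. Values per mouse are given for every member called in at least 1 comparison, the 8 of highest mean FPKM, and a list of heavy chains and of kidney and growth transporters; from other lists, the called genes with the largest changes, and Tmem27 (collectrin), Atf4 and Asns; some items of these lists are not reported here. Promoters came from RefSeq (GRCm38.p6). Shared exonic bases were taken from GENCODE vM39 and near copies from BLAST 2.17.0 (at least 95% identity over 400 bases).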

Additional observations from a re-analysis of the deposited data

Results flagged for a closer look

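In 2 of 78 groups of 4 mice (26 named members, 3 genotypes), the highest or lowest mouse stood farther from the rest than Dixon's critical value at the 95% level allows; chance gives about 1 in 20 groups, or 3.9 here. Slc36a2 stood at 14.9 CPM in RC/RC mouse RC139, against 0.486 to 2.53 CPM in the other RC/RC mice. The 4 adipose markers summed to 314 CPM in the same mouse, and their part in this value was not tested beyond leaving the mouse out. Slc43a2 stood at 224 CPM in WT mouse B6_4, against 286 to 294 CPM in the other WT mice, and that mouse was still above every RC/RC and RC/RC:Casp1KO mouse. Without B6_4, Slc43a2 remained called lower in RC/RC:Casp1KO than in WT (log2 fold change -0.67, adjusted p = 0.023 by edgeR).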

How the results depend on the processing

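No paired analysis was possible because the table's columns carry no replicate numbers. Library size alone shifted the median of all genes to 0.14 in RC/RC:Casp1KO against WT on the log2 scale, so changes there are best read relative to it. At these depths, members with at most 3 counts in a mouse could not be told from 0. Slc7a2, Slc7a8 and Slc43a2 in RC/RC against WT and Slc38a6 and Slc38a9 in RC/RC:Casp1KO against RC/RC were called under every alternative and without any single mouse. For the other changes below the cause was not tested.

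Members called numbered 14, 13 and 3 by DESeq2 in RC/RC against WT, RC/RC:Casp1KO against RC/RC and RC/RC:Casp1KO against WT (5, 5 and 1 by edgeR), and genes called 2988, 3175 and 1406 (1971, 1797 and 311). With the Xist level as a covariate they numbered 10, 9 and 6 members, with 1290 genes in the last comparison. For RC/RC:Casp1KO against RC/RC, library size alone called 993 genes, limma 1052 genes, and 1 fit over all mice 9 members. In RC/RC:Casp1KO against WT, at least 10 counts called 167 genes, and no member (0) was called with library size alone, 1 fit over all mice or limma. The call of Slc36a2 was lost with limma (adjusted p = 0.207), and the gene was not tested where at least 10 counts were required; that of Slc43a3 with library size alone or limma (0.0864 and 0.0901); and that of Slc6a15 in 1 fit over all mice (0.0613). Leaving out 1 mouse gave 1162 to 2440 genes and 3 to 8 members in the first comparison, 438 to 2789 and 2 to 9 in the second, and 108 to 547 and 0 to 3 in the third.

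Among the members named by the rule and tested, signs turned only where edgeR made no call in the comparison concerned; the others were checked only with the Xist covariate, where Slc6a9 in RC/RC against WT (-0.23 to 0.10) and Slc38a10 in RC/RC:Casp1KO against RC/RC (0.011 to -0.0049) turned as well. Slc7a12 in RC/RC against WT was 0.76 with limma and 0.68 with the Xist covariate, and -0.14 with it in RC/RC:Casp1KO against RC/RC. In RC/RC:Casp1KO against WT, Slc7a5 was -0.027 by DESeq2, -0.013 with RLE, -0.0094 with all genes, -0.0028 in 1 fit and -0.0047 with the covariate; Slc1a1 was 0.11 with library size alone and 0.10 with limma; and Slc7a13 was 0.13 with limma and 0.56 with the covariate. Without 1 mouse each, log2 fold changes in RC/RC against WT ran from -0.51 to 0.036 for Slc6a18, -1.17 to 0.42 for Slc7a12 and -1.5 to 0.015 for Slc7a13. In RC/RC:Casp1KO against RC/RC they ran from -0.45 to 0.047 for Slc1a5, -0.086 to 0.25 for Slc7a7, -0.028 to 0.17 for Slc38a2, -0.088 to 1.17 for Slc7a12, -0.040 to 0.34 for Slc38a3, -0.096 to 0.15 for Slc3a2 and -0.45 to 1.31 for Slc7a13. For RC/RC:Casp1KO against WT they ran from -0.022 to 0.24 for Slc3a1, -0.47 to 0.82 for Slc7a12, -1.08 to 0.53 for Slc7a13, -0.064 to 0.15 for Slc7a9, -0.030 to 0.25 for Slc6a19, -0.19 to 0.21 for Slc7a5, -0.073 to 0.048 for Slc1a1, -0.014 to 0.13 for Slc6a20b, -0.43 to 0.090 for Slc38a3 and -0.0010 to 0.18 for Slc43a1.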

Other observations

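Of 26 genes of kidney amino acid metabolism, which include enzymes that use amino acids taken up by the tubule, 2 were called higher and 3 lower in RC/RC than in WT (19.2%, beside 12.9% of all genes tested), and none in RC/RC:Casp1KO against RC/RC or against WT, where 3 and 7 had an unadjusted p under 0.05 by edgeR (31.7% and 21.8% of all genes did). Agmat, the gene of agmatinase, rose from 3.74 ± 1.27 to 9.88 ± 1.91 CPM (log2 fold change 1.40 ± 0.259 SE, adjusted p = 0.00841), and Gamt, the second enzyme of creatine synthesis, from 18.5 ± 3.97 to 29.5 ± 5.7 CPM (adjusted p = 0.0434). Ddc, which makes dopamine in the proximal tubule, was at 137 ± 49.1 CPM in WT against 67.2 ± 22.2 CPM in RC/RC (log2 fold change -1.03 ± 0.294 SE, adjusted p = 0.0486), and Amt, a subunit of the glycine cleavage system, at 60.8 ± 13.5 against 39.6 ± 6.38 CPM (adjusted p = 0.0445). The third called lower was Ddo, which oxidises D-aspartate (adjusted p = 0.0327). Without RC139, an alternative chosen after seeing the data, Agmat was still called (adjusted p = 0.0266), and Gamt, Ddc, Amt and Ddo were not (0.0936, 0.118, 0.106 and 0.0666). Without Del3_70, 1 of the 26 genes was called higher in RC/RC:Casp1KO than in RC/RC (3.85%, beside 9.04% of all genes called).

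Of 12 genes of glutathione synthesis and other targets of the antioxidant factor NRF2, 2 were called lower in RC/RC:Casp1KO than in WT (16.7%, beside 0.893% of all genes called lower), 10 had a negative and 2 a positive log2 fold change, and the list itself was not tested. The called genes were Gclc, the catalytic subunit of the enzyme that joins glutamate to cysteine, at 241 ± 42 against 414 ± 43.3 CPM (log2 fold change -0.78 ± 0.142 SE, adjusted p = 0.0327), and the glutathione reductase Gsr, at 126 ± 21 against 201 ± 21.5 CPM (-0.66 ± 0.134 SE, adjusted p = 0.0458). Neither was called without Del3_70 (adjusted p = 0.0733 and 0.124). In RC/RC against WT 1 of the 12 was called, Srxn1, at 57.1 ± 3.07 against 84.9 ± 18.9 CPM (adjusted p = 0.0334, and 0.0807 without RC139). In RC/RC:Casp1KO against RC/RC all 12 were negative, none was called, and 3 had an unadjusted p under 0.05 by edgeR, beside 31.7% of all genes. In the ATF4 list, Cebpb, a transcription factor of stress and inflammation, was called lower in RC/RC:Casp1KO than in WT, at 11.5 ± 2.65 against 28.5 ± 7.89 CPM (adjusted p = 0.025). It was the 1 call among the 23 genes (4.35%, beside 0.893% of all genes called lower), of which 15 were negative and 8 positive.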
